A study of Mus musculus with 25 samples.

Results

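The genes described here encode DOT1L, the methyltransferase of lysine 79 of histone H3 (H3K79), and the proteins that bind it or bind its partners. They were chosen by name, as the known members of the DOT1L complex and of the AFF scaffolds that share its subunits. No measured value entered that rule, but earlier results of these data were known when the choice was made. There were 7 such genes, Dot1l, Mllt3, Mllt1, Mllt10, Mllt6, Aff1 and Aff4, of 35731 genes in the table of mouse embryonic stem cells (mESCs) and 24062 in the table of embryos. All 7 were among the 19434 symbols found in both tables, and all 7 were tested in both.

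The study removed or inhibited Dot1L in mouse cells and measured RNA and H3K79 methylation. Its mESCs were of the v6.5 line, either wild type (WT) or Dot1L knockout (KO), with no treatment in either group, and RNA was read in 3 WT and 2 KO libraries. Chromatin immunoprecipitation (ChIP) of dimethylated (H3K79me2) and trimethylated (H3K79me3) lysine 79 was available as 2 WT and 2 KO peak lists for each mark. The embryos were wild-type 8-cell embryos of the cross B6D2F1 x Cast/EiJ at 56 hours after fertilization, in pools of 30 to 35, with 2 pools given the solvent DMSO and 2 given SGC0946, an inhibitor of the DOT1L catalytic site. The exons removed in the KO, the number of KO clones and the dose and duration of SGC0946 are not given in the sources used here. The sources also do not say whether replicates were separate cultures or cohorts of embryos, so p-values measure only the spread between these samples.

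DOT1L is the enzyme known for placing H3K79 methylation, which lies over the bodies of transcribed genes, mostly towards their 5′ ends. MLLT3 (AF9) and MLLT1 (ENL) are paralogs whose YEATS domain binds acylated lysines of histone H3 and whose C-terminal domain binds either DOT1L or an AFF protein. MLLT10 (AF10) and MLLT6 (AF17) are paralogs that bind DOT1L through a coiled coil, and AF10 is needed for its higher methylation states. AFF1 (AF4) and AFF4 are long disordered scaffolds of the super elongation complex, which brings the kinase P-TEFb to paused RNA polymerase II.

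RefSeq gave 11 start sites for the 7 genes on GRCm38.p6, each with a window of 300 bases, 250 before the start and 50 after it. The windows below are those at the starts whose downstream peaks are described later, for the enzyme, for the reader gene that had no H3K79me2 peak (Mllt3), for the AF10 and AF17 genes and for Aff4. They are chr10:80754953-80755252 on the plus strand (Dot1l), chr4:88033358-88033657 on the minus strand (Mllt3), chr2:18064335-18064634 on the plus strand (Mllt10), chr11:97663162-97663461 on the plus strand (Mllt6) and chr11:53350517-53350816 on the plus strand (Aff4). Each is written 5′ to 3′ along transcription. Capitals mark matches on either strand to any of 5 motifs, and matches that overlap run together. The GC box was searched as GGGCGG, and the CCAAT box by the letters of its name. The TATA box was searched as TATAAA. The E-box was searched as CACGTG, and the core of sites for ETS factors as CCGGAA.
Dot1l: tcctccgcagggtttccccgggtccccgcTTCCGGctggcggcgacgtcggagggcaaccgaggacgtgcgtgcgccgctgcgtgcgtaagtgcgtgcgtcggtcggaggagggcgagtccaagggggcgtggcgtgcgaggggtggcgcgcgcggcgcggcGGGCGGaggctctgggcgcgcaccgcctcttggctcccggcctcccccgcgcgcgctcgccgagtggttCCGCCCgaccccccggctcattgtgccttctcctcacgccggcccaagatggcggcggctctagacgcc
Mllt3: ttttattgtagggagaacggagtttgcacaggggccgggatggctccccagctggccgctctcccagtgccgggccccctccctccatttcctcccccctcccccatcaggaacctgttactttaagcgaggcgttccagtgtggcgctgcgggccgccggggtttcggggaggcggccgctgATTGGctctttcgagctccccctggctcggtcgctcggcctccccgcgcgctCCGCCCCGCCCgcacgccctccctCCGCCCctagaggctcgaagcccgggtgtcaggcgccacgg
Mllt10: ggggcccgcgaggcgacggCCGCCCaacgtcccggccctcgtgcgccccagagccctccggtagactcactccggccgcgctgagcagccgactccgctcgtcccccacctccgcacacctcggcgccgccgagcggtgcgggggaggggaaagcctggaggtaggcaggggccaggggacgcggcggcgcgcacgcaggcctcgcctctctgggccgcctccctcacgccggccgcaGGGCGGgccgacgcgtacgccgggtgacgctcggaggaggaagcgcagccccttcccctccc
Mllt6: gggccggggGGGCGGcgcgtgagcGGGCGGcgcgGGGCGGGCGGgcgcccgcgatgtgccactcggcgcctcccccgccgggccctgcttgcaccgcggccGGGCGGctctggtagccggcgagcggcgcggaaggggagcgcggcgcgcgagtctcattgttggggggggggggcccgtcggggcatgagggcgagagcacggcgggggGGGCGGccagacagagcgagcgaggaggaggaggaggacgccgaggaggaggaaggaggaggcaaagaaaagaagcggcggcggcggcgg
Aff4: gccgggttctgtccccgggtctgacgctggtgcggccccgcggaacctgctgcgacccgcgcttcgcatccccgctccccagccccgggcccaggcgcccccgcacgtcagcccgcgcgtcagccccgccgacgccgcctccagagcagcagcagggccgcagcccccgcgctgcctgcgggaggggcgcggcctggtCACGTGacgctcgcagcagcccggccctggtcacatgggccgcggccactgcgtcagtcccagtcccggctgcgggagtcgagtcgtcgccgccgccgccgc

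These 5 windows were rich in G and C. GC content was 76.3% at Dot1l, 70.3% at Mllt3, 78.3% at Mllt10, 79.3% at Mllt6 and 79% at Aff4, against a median of 52.7% over all 32851 RefSeq windows of this length. The windows of Mllt1 (77.7%) and Aff1 (77.3% and 63%) were also above that median. The other window of Mllt3 (44.7%) and the 2 outer windows of Mllt10 (42.3% and 42.7%) were below it. The observed-to-expected ratio of CpG in the 5 windows shown was 0.795 at Mllt3 and between 0.938 and 1.12 at the others, against a median of 0.384. A GC box was found in 7 of the 11 windows, in those of 6 of the 7 genes, all but Aff4, and in 35.7% of all windows. CCAAT was found in 4 of the 11 windows (37.4% of all windows), CCGGAA in 3 (14.9%) and CACGTG in 1, that of Aff4 (7.15%). TATAAA was found in 0 of the 11 windows and in 13.6% of all windows. The Mllt6 window held 6 GC boxes, the Dot1l and Mllt10 windows 2 each and the Mllt3 window 3. A match describes the letters only. All RefSeq windows were taken whatever the kind of gene and its RNA level, so their medians and shares are not a matched background for the 7 genes.

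In mESCs, RNA of 6 of the 7 genes passed the test between KO and WT, and 5 of these fell while 1, Mllt3, rose. The test was edgeR's quasi-likelihood test on the whole table with Benjamini-Hochberg adjustment and a threshold of 0.05. Of the 19561 genes tested, 43.7% were called, 21.4% lower and 22.3% higher, so a called gene was common in this comparison. The median log2 fold change of the 7 genes was -0.20, against 0.00 over all genes tested. The values of KO and WT did not overlap for any of the 7, which was the case for 62.5% of all genes tested. Levels are given in CPM, which are counts relative to the TMM-adjusted library size. They are not divided by transcript length, so levels of different genes are not compared.

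Dot1l (ENSMUSG00000061589, chr10:80755101-80795461) is the gene named in the KO. Its level was 104, 96.8 and 99.1 CPM in the 3 WT libraries and 81.4 and 71.6 CPM in the 2 KO libraries, from 2201 to 3151 estimated counts per library. Both KO libraries were below all WT libraries, but the transcript was still plainly read in them. WT averaged 100.1 ± 3.90 CPM over 3 libraries (± is the SD here and below) and KO averaged 76.5 ± 6.93 CPM over 2. Dot1l thus fell, with a log2 fold change of -0.39 (SE 0.0590; edgeR adjusted p = 1.62e-04), or -23.5%. A total over the gene does not show which exons the remaining RNA holds, so it checks the KO label only in direction.

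Of the YEATS readers Mllt3 and Mllt1, only Mllt3 passed the test. Mllt3 (AF9, ENSMUSG00000028496) was at 22.8, 23.7 and 21.8 CPM in WT and 29.2 and 28.3 CPM in KO. Both KO libraries lay above all WT libraries. Mllt3 rose from a mean of 22.7 ± 0.944 to 28.7 ± 0.662 CPM, a log2 fold change of 0.34 (SE 0.0599; edgeR adjusted p = 5.45e-04), or 26.3%. Its paralog Mllt1 (ENL, ENSMUSG00000024212) was at 33.96, 32.4 and 32.8 CPM in WT and 31.8 and 31.7 CPM in KO. The KO values were just below the lowest WT value, and the log2 fold change of -0.06 (SE 0.0528; 95% interval -0.16 to 0.05) did not pass (edgeR adjusted p = 0.405). With upper-quartile scaling, which moves the median of all genes by 0.07 on the log2 scale, the sign for Mllt1 turned, to 0.01.

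The AF10 and AF17 genes both fell. Mllt10 (AF10, ENSMUSG00000026743) was at 132.8, 135 and 136 CPM in WT and at 104.6 and 112 CPM in KO. The spread among the WT libraries was small beside the gap to the KO libraries. The log2 fold change was -0.31 (SE 0.0459; edgeR adjusted p = 1.18e-04), or -19.5%. Mllt6 (AF17, ENSMUSG00000038437) was at 153, 147 and 148 CPM in WT and 134 and 140.1 CPM in KO, a log2 fold change of -0.13 (SE 0.0436; edgeR adjusted p = 0.0318), or -8.40%. The call for Mllt6 was the least secure of the 6. It was lost with upper-quartile scaling (edgeR adjusted p = 0.264), and in 4 of the 5 fits that left out a library: WT replicate 1 (0.118), WT replicate 2 (0.0521), WT replicate 3 (0.0742) and KO replicate 1 (0.106).

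Both AFF scaffold genes fell, Aff4 by more. Aff4 (ENSMUSG00000049470) was at 685, 692 and 684 CPM in WT and 471 and 505 CPM in KO. Both KO libraries lay far below the WT libraries, which differed among themselves by only a few CPM. Aff4 fell from a mean of 686.8 ± 4.72 to 488.2 ± 24.0 CPM, a log2 fold change of -0.49 (SE 0.0396; edgeR adjusted p = 5.26e-07), or -28.9%, the largest change among the 7 genes. Aff1 (AF4, ENSMUSG00000029313) was at 84.1, 83.1 and 83.6 CPM in WT and 72.7 and 73.1 CPM in KO. Its log2 fold change was -0.20 (SE 0.0445; edgeR adjusted p = 0.00301), or -12.8%.

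The estimated counts of Mllt3, Mllt10, Mllt6, Aff1 and Aff4 as deposited with all their decimals, were not exactly whole in any of the 5 libraries, which an estimate gives where reads are shared out between transcripts or genes. Those of Dot1l and Mllt1 were exactly whole in all 5. Levels of cell type markers also differed between these libraries. Sums of marker levels, here and in embryos, are relative to the library size without the TMM adjustment. The summed level of 5 markers of pluripotent cells (Pou5f1, Nanog, Sox2, Zfp42 and Esrrb) was 2312 to 2364 CPM in WT and 1972 to 2029 CPM in KO. That of 5 fibroblast markers (Col1a1, Col1a2, Thy1, Postn and Dcn) was 125 to 158 CPM in WT and 178 to 227 CPM in KO, with none at 0. TMM factors were 0.965 to 0.975 in WT and 1.03 to 1.06 in KO. With them the pluripotent fall would be larger and the fibroblast rise smaller. In each list 3 of 5 genes passed the test, and their part in the changes of the 7 genes was not tested. In bulk RNA, fewer cells of a type and less RNA per cell cannot be told apart.

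**Figure D1:**
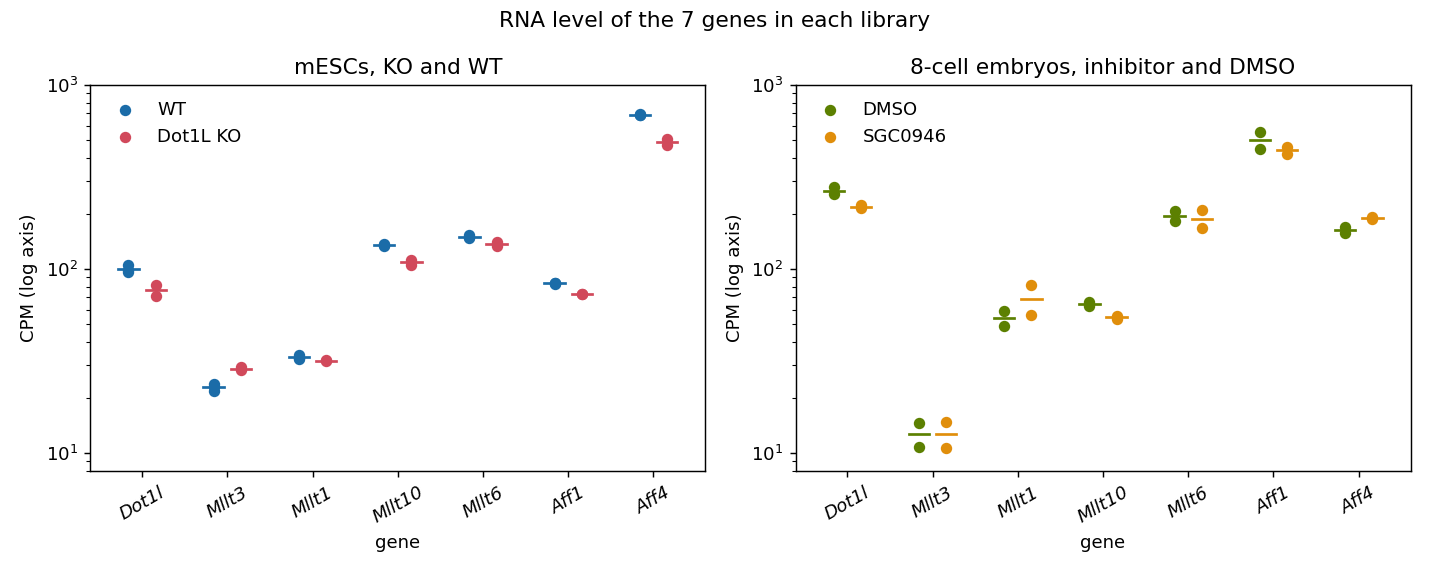
Level of each of the 7 genes in every RNA library, in CPM, with points for libraries and bars for group means. In mESCs (3 WT, 2 KO) the groups do not overlap for any gene, and Mllt3 is the only one higher in KO; in embryos (2 DMSO, 2 SGC0946) only Dot1l, Mllt10 and Aff4 have groups that do not overlap.

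The balance within each pair of paralogs was compared as a log2 ratio of counts in each library, which does not depend on the library scaling. Such a ratio shows unequal change and not which of the genes changed. Estimated counts of Mllt3 were 0.671, 0.729 and 0.663 times those of Mllt1 in WT and 0.918 and 0.893 times in KO. The log2 ratio was -0.54 ± 0.075 in the 3 WT libraries and -0.14 ± 0.028 in the 2 KO libraries, a difference of 0.40. Counts of Aff4 were 8.14, 8.33 and 8.17 times those of Aff1 in WT and 6.48 and 6.91 times in KO, a difference in log2 ratio of -0.30. For Mllt10 over Mllt6 the log2 ratio was -0.15 ± 0.050 in WT and -0.34 ± 0.026 in KO, a difference of -0.19. WT and KO did not overlap for any of the 3 ratios. Each had p = 0.1 in a 2-sided exact permutation test over libraries (Benjamini-Hochberg adjusted p = 0.1 over the 3), which is the smallest p that 3 against 2 allows, so this design cannot reach 0.05.

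In 8-cell embryos, none of the 7 genes passed the test between SGC0946 and DMSO. edgeR called 0 of the 7 genes and 0 of all 14351 genes tested, which is 0%. At an unadjusted p under 0.05 it counted 1 of the 7, Dot1l, and 8.15% of all genes. DESeq2 called 0 of the 7 and 126 of all genes, or 0.878%. The biological coefficient of variation between pools was 0.442, against 0.0468 between the mESC libraries. Standard errors of the 7 log2 fold changes were 0.130 to 0.357 in embryos, against 0.0396 to 0.0599 in mESCs. The median log2 fold change of the 7 genes was -0.06, against 0.01 over all genes tested.

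Dot1l RNA was at 278 and 256 CPM with DMSO and 221 and 214 CPM with SGC0946. Both inhibitor pools lay below both DMSO pools. DMSO pools averaged 266.8 ± 15.5 CPM and inhibitor pools 217.7 ± 5.16 CPM, 2 pools in each group. The log2 fold change was -0.29 (SE 0.130; 95% interval -0.55 to -0.04; edgeR adjusted p = 0.582). Mllt10 was at 66.4 and 62.7 CPM with DMSO and 55.8 and 53.7 CPM with SGC0946, again without overlap, with a log2 fold change of -0.24 (SE 0.188; 95% interval -0.61 to 0.13; edgeR adjusted p = 0.816). Aff4 was the third gene without overlap, and here the inhibitor pools were the higher ones. Its levels were 169 and 157 CPM with DMSO and 192 and 187 CPM with SGC0946, a log2 fold change of 0.22 (SE 0.138; 95% interval -0.05 to 0.49; edgeR adjusted p = 0.758). Groups that did not overlap were found for 39.2% of all genes tested.

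For the other 4 genes the pools of the groups overlapped. Mllt3 was at 10.8 and 14.5 CPM with DMSO and 14.6 and 10.7 CPM with SGC0946, so that the groups spanned the same range. Its log2 fold change was 0.00 (SE 0.357), with a 95% interval from -0.70 to 0.70 that holds the mESC value of 0.34. Mllt1 was at 59.0 and 48.7 CPM with DMSO and 81.6 and 56.2 CPM with SGC0946 (log2 fold change 0.35, SE 0.218; edgeR adjusted p = 0.749). Mllt6 was at 183 and 207 CPM with DMSO and 208 and 167 CPM with SGC0946 (log2 fold change -0.06, SE 0.150; edgeR adjusted p = 0.974). Aff1 was at 449 and 552 CPM with DMSO and 421 and 463 CPM with SGC0946 (log2 fold change -0.18, SE 0.130; edgeR adjusted p = 0.796). For Mllt1, 1 inhibitor pool was above both DMSO pools and the other lay between them.

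Of the paralog ratios in embryos, that of Aff4 over Aff1 did not overlap between groups. It was 0.376 and 0.284 with DMSO and 0.457 and 0.404 with SGC0946, a difference of 0.39 in log2 ratio (2-sided exact permutation p = 0.333, the smallest that 2 against 2 allows; Benjamini-Hochberg adjusted p = 0.667 over the 3). The log2 ratio of Mllt3 over Mllt1 was -2.10 ± 0.50 with DMSO and -2.44 ± 0.058 with SGC0946 (2 pools in each group; exact permutation p = 0.667), and that of Mllt10 over Mllt6 was -1.59 ± 0.18 and -1.77 ± 0.18 (exact permutation p = 0.667). Both overlapped between groups.

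Without the TMM adjustment, the summed level of 5 markers of 8-cell embryos and morulae (Pou5f1, Nanog, Cdx2, Tead4 and Gata3) was 1115 to 1248 CPM with DMSO. It was 888 to 956 CPM with SGC0946, and none of the 5 passed the test. TMM factors were 0.963 and 0.975 with DMSO and 1.05 and 1.01 with SGC0946, so with them this difference would be larger. Most of the sum came from Pou5f1 and Tead4. With the TMM adjustment, Pou5f1 averaged 708 CPM with DMSO and 503 CPM with SGC0946, and Tead4 453 and 348 CPM. Gata3 went the other way (9.80 and 11.2 CPM), and Cdx2 overlapped between groups. In WT mESCs the sum of this list was 1157 to 1182 CPM, so it does not tell embryos from mESCs. The summed level of 5 cumulus cell markers was 0.40 to 1.20 CPM over the 4 pools, with Fshr and Ptx3 at 0 in all of them. That of the fibroblast markers was 0.561 to 2.76 CPM, with Dcn at 0. The part of the difference in the 8-cell and morula list in the values of the 7 genes was not tested.

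**Figure D2:**
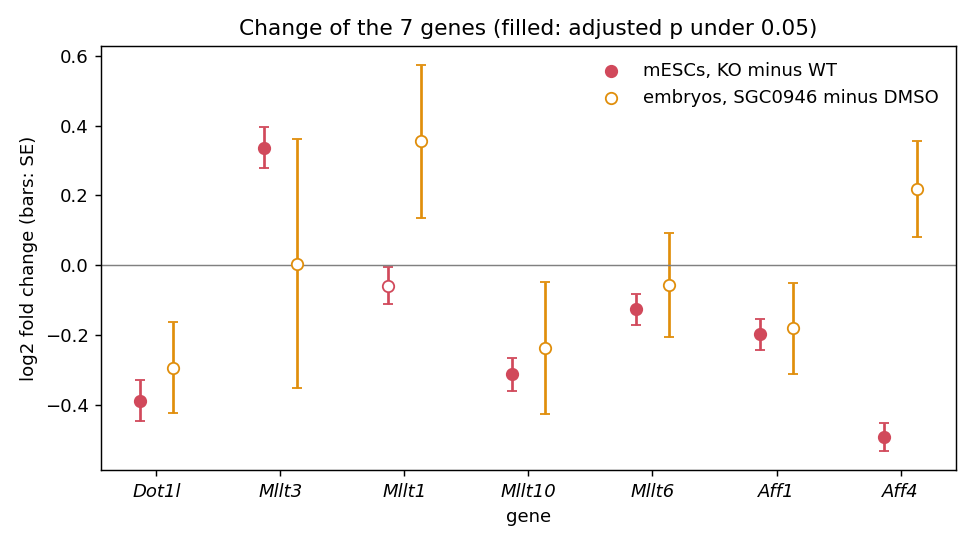
Log2 fold change of each gene, KO over WT in mESCs and SGC0946 over DMSO in embryos. Bars are standard errors derived from the edgeR test, and 95% intervals use the normal quantile, which makes them narrower than the test would. The computed 95% intervals leave out 0 for the 6 called genes in mESCs. In embryos the 95% intervals are wider, and that of Dot1l is the only one that leaves out 0, with no call after adjustment.

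The mESC and embryo libraries were made with different kits and counted with different tools, so the comparisons are set side by side and the difference between them was not tested. Dot1l had estimates of -0.39 with KO in mESCs and -0.29 with inhibitor in embryos. Mllt10 had -0.31 and -0.24, and Aff1 had -0.20 and -0.18, with only the mESC values past the test. The embryo estimate of Aff1 was -0.02 without DMSO replicate 2 and -0.32 without DMSO replicate 1. Aff4 had a mESC estimate of -0.49 and an embryo estimate of 0.22. The embryo interval of Aff4, from -0.05 to 0.49, did not reach its mESC interval, from -0.57 to -0.41.

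**Figure D3:**
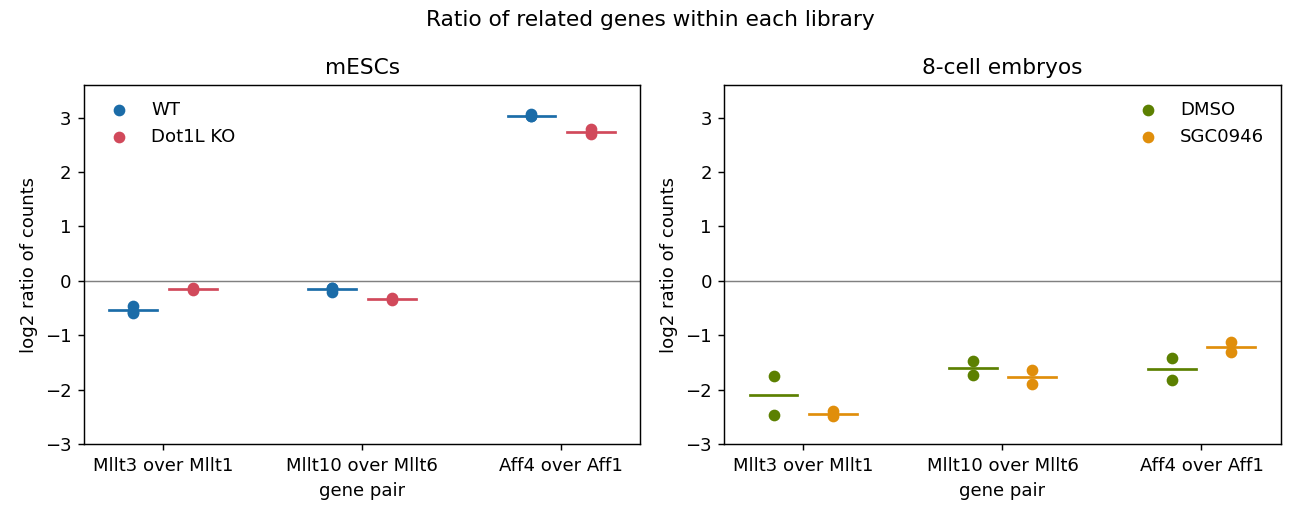
Log2 count ratio of each pair of paralogs in every RNA library, with points for libraries and bars for group means. In mESCs the KO ratio is higher for Mllt3 over Mllt1 and lower for the other pairs, without overlap; in embryos the Aff4 over Aff1 ratio is the only one whose groups do not overlap.

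The genes whose pattern over the 9 RNA libraries was most like that of Dot1l were Ulk1, an autophagy kinase (Pearson r = 0.990), Fam199x (r = 0.972) and Fzr1, an activator of the anaphase-promoting complex (r = 0.963). Levels were centred within each table, and the 6409 genes that averaged 10 CPM or more in both tables were ranked. Among the complex genes, Mllt10 was closest to Dot1l (r = 0.898, rank 81), followed by Aff1 (0.616), Aff4 (0.504) and Mllt6 (0.434). Mllt1 (-0.126) and Mllt3 (-0.545) had negative values. These correlations describe libraries that share groups and are given with no test.

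Genes whose products work beside the complex were read from the same fits, as a list of 30 in 7 groups. In mESCs all 30 were tested and 14 passed, 7 higher and 7 lower in KO, beside the 43.7% of all genes, with a median log2 fold change of -0.01. With upper-quartile scaling 15 passed, 11 higher and 4 lower, and over all genes the share of higher calls moved from 50.98% to 63.4%. In embryos 29 were tested and edgeR called 0 of them, beside 0% of all genes. At an unadjusted p under 0.05 it counted 6 of them, beside 8.15% of all genes. DESeq2 called 1, Rnf40, beside 0.878% of all genes. The list was chosen with earlier results of these data known, so these counts are not read as an excess.

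Over all genes tested in mESCs, 22.3% were called higher and 21.4% lower. Counts of calls within the small groups of the list are therefore not read as results about a group. Members of the super elongation complex moved in both directions in mESCs. Aff3, another AFF scaffold, rose by 1.72 on the log2 scale (SE 0.197; edgeR adjusted p = 1.45e-05), and Aff2, the other AFF paralog, fell by 1.21 (edgeR adjusted p = 4.32e-06; chosen after its value was seen). Of 5 genes for the ELL elongation factors and the EAF proteins that bind them, 1 rose and 2 fell, and Ell3 had the largest change, 0.60 (SE 0.0758; edgeR adjusted p = 3.20e-05). Of 7 genes for P-TEFb and its control, 1 rose and 3 fell. Larp7, a subunit of the 7SK particle that holds P-TEFb inactive, fell by 0.68 on the log2 scale (SE 0.0583; edgeR adjusted p = 9.85e-07).

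Of 6 genes for the PAF1 elongation complex, 3 were called higher and 0 lower, beside 22.3% and 21.4% of all genes tested. Paf1 had the largest change, 0.41 (SE 0.0486; edgeR adjusted p = 1.98e-05). Leo1 (-0.06), Cdc73 (-0.03) and Rtf1 (-0.09) had negative estimates and were not called. Ubiquitin on histone H2B is known to stimulate DOT1L, and of 5 genes for its placement and removal 1 passed: Ube2a, a ubiquitin-conjugating enzyme, fell by 1.13 on the log2 scale (SE 0.0483; edgeR adjusted p = 1.92e-09). None of 3 genes for the MLL methyltransferase and its partners passed, with Kmt2a at 0.10 (edgeR adjusted p = 0.0867). Of 2 further YEATS genes, Yeats4 was at 0.14 (edgeR adjusted p = 0.0813) and 1 passed, Yeats2, also at 0.14 (edgeR adjusted p = 0.0248; chosen after its value was seen).

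Aff2 and Ube2a lie on the X chromosome. The 596 genes of that chromosome with a mean level of 1 CPM or more had a median log2 fold change of -0.65, and 88.3% of them had a negative value. For the 10 genes of the Y chromosome at such a level the median was -0.84, with 100% negative. None of the 7 complex genes lies there. The medians of their own chromosomes were between -0.03 and 0.04. The part of the X-wide difference in the values of Aff2 and Ube2a was not tested.

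In embryos the largest change in each group of the list did not pass the test. Rnf40, part of the H2B ubiquitin ligase, was at -0.48 (SE 0.138; edgeR adjusted p = 0.376), Cdk9, the P-TEFb kinase, at -0.41, and Psip1, an MLL partner, at 0.56. Eaf2 had an estimate of 4.05 (SE 1.66; edgeR adjusted p = 0.548) from 5 and 1 counts with DMSO and 81 and 24 counts with SGC0946. Aff3 was at 0.31, Paf1 at 0.27 and Yeats2 at -0.31. In the fit without SGC0946 replicate 2, Ell3 (-1.10; edgeR adjusted p = 0.0447) and Usp22 (-0.60; edgeR adjusted p = 0.0290) were called, both chosen after their values were seen.

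ChIP peaks were then read over the 7 genes. The authors called peaks separately in each library, and enrichment (fold) and −log10 q of a peak are their values. A gene was counted as marked where its annotated body overlapped a region found in both WT lists by at least 1 base. H3K79me2 marked 6 of the 7 genes in WT mESCs, all but Mllt3, against 36.1% of 21883 protein-coding genes. Among the 7002 of these whose RNA was at least at the level of the lowest of the 7 genes, the share was 86.3%, so 6 of 7 was near the share of genes with such RNA levels. H3K79me3 marked 2 of the 7, Mllt10 and Mllt6, against 9.1% of protein-coding genes and 21.7% of those at such RNA levels. The count for H3K79me3 rests on the shorter list: WT replicate 1 alone had peaks over 5 of the 7, against 24% of protein-coding genes, and WT replicate 2 alone over 2, against 10.3%. For single lists the share among genes at such RNA levels was not computed, so these counts are not read as an excess.

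In KO the lists held 16 and 12 peaks for H3K79me2 and 178 and 328 for H3K79me3, against 66834 and 64084, and 19800 and 7338, in WT. None of the 7 genes had a peak of either mark in any of the 4 KO lists. KO peaks overlapped 0.0411% and 0.0457% of protein-coding genes for H3K79me2 and 0.251% and 0.754% for H3K79me3. Peak lists hold no read counts, so the depth of the ChIP libraries is unknown and a gene without a peak is not shown to lack the mark.

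Over Dot1l itself, H3K79me2 formed a single broad block at the 5′ end. It ran from chr10:80755413-80765572 in WT replicate 1 (7.59-fold, −log10 q 30.5) and chr10:80755411-80765558 in WT replicate 2 (9.29-fold, −log10 q 32.6), 10.2 kb in replicate 1. The block began 0.312 kb and 0.310 kb after the gene start, just past the window of 300 bases shown above. It covered 96.9% of the first 10 kb in both lists and left 7.01% and 2.31% of the remaining gene covered. H3K79me3 over Dot1l was called in WT replicate 1 only, at chr10:80755363-80756065 (4.37-fold, −log10 q 5.57), which overlaps the start of the H3K79me2 block.

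The YEATS reader genes differed. Mllt3 (chr4:87769925-88033407, minus strand), which spans 263 kb, had no H3K79me2 peak in either WT list. It had a single H3K79me3 peak, in WT replicate 1 only, at chr4:88031753-88032232 (5.02-fold, −log10 q 7.71), a short way past the start whose window is shown above. Mllt1 (chr17:56892608-56935509, minus strand) had H3K79me2 peaks over 51.2% and 50.0% of its body in WT replicates 1 and 2, and over 94.2% and 93.8% of its first 10 kb, with no H3K79me3 peak. Its most enriched peaks were chr17:56926703-56935169 (7.14-fold) and chr17:56930524-56935240 (8.63-fold).

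Over Mllt10 (chr2:18055160-18212390, plus strand) the broad H3K79me2 block did not begin at the outermost gene start. Short peaks began 3.28 kb and 3.38 kb after it, and the broad block followed a start 9.43 kb inside the gene, the CpG-rich one at chr2:18064335-18064634 shown above. The 10 kb after that inner start were covered by 80.2% and 83.1%, against 33.2% and 35.5% after the outer start. The most enriched H3K79me3 peaks were at chr2:18065592-18065949 in WT replicate 1 (6.99-fold, −log10 q 15.2) and chr2:18065710-18066212 in replicate 2 (2.80-fold, −log10 q 1.34), within that block. Mllt10 shares its span with 5 other annotated genes, among them Dnajc1 on the other strand, so its peaks cannot be assigned to 1 gene throughout.

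Mllt6 (chr11:97663122-97685461, plus strand), the shortest of the 7 at 22.3 kb, had the largest share of its body covered by H3K79me2, 63.2% and 57.2%. Its promoter window held an H3K79me2 peak in both WT lists, while that of Aff4 overlapped 2 in WT replicate 1 only and the other genes' windows held none. H3K79me3 was called over Mllt6 in both lists, most strongly at chr11:97665438-97665793 (3.96-fold) and chr11:97665439-97665677 (4.34-fold).

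The AFF scaffold genes carried H3K79me2 in different shapes. Aff4 (chr11:53350640-53421830, plus strand) had a block of 15.5 kb in WT replicate 1 (chr11:53353571-53369095, 7.63-fold) and of 16.1 kb in replicate 2 (chr11:53351621-53367767, 9.26-fold), with 92.4% and 90.2% of the first 10 kb and 48.6% and 39.5% of the body covered. It had 6 H3K79me3 peaks in replicate 1 and none in replicate 2. Aff1 (chr5:103692362-103855322, plus strand) had the lowest coverage of the 6 marked genes, 21.2% and 18.5% of its body, in 60 and 47 separate peaks and no H3K79me3 peak. The 2 RefSeq windows of Aff1 lie 61.8 kb and 62.2 kb inside the gene, and the 10 kb after the first of them were covered by 64.4% and 59.0%, against 44.0% and 41.6% of the first 10 kb of the gene.

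Across the 7 genes, Mllt3 included, the median covered share of the body was 37.0% and 34.2% for H3K79me2 in WT replicates 1 and 2. Over the 7889 protein-coding genes marked in both lists it was 23.2% and 20.8%, and over the 6045 of these at such RNA levels 26.5% and 23.9%. Mllt3, the gene with no H3K79me2 peak, was also the only one of the 7 that rose in KO. With 1 gene of this kind, no relation between mark and change was computed.

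**Figure D4:**
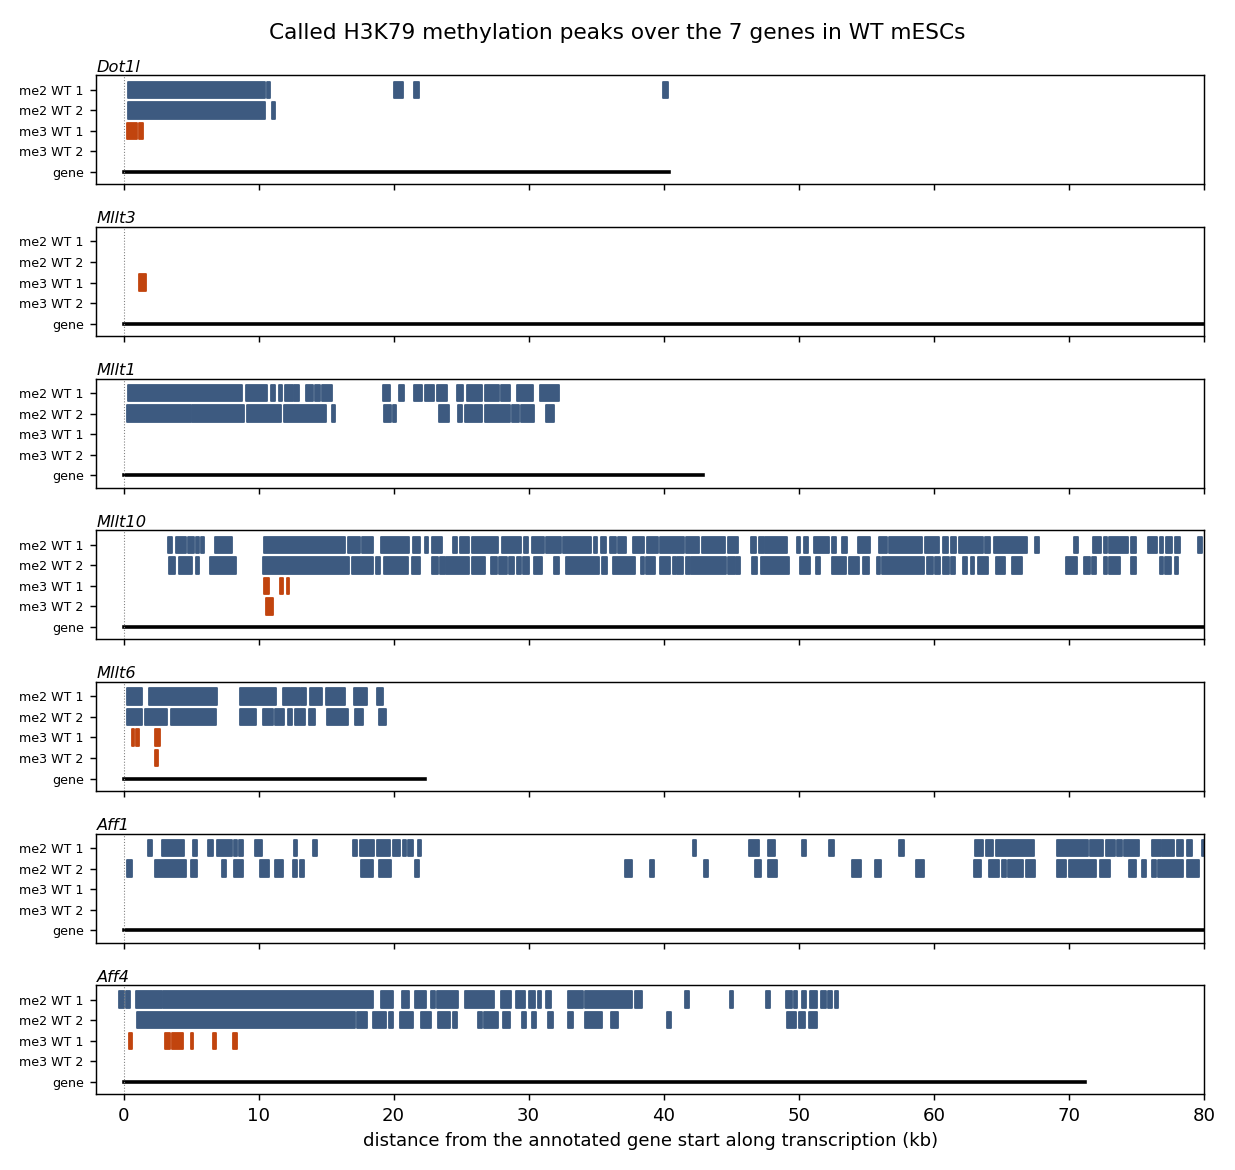
Called peaks of H3K79me2 (blue) and H3K79me3 (orange) in the 2 WT mESC lists of each mark over the 7 genes, by distance in kb from the annotated gene start along transcription, up to 80 kb, with the gene as a black line. Dot1l and Aff4 show a broad H3K79me2 block at the start, the Mllt10 block begins after the inner start at 9.43 kb, and Mllt3 shows only a single H3K79me3 peak.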

How the data were processed

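RNA and peak lists of 25 samples were deposited, of which the 8 input libraries were not used here. The deposited mESC table gives expected counts (estimated counts) per gene, made by the authors with kallisto, and the deposited embryo table gives whole counts made with STAR and HTSeq, per the submitters' processing notes, which for WT replicate 2 of the mESC RNA list all 3 tools. Peaks were called by the authors with MACS2 after Bowtie2 alignment to mm10, per the submitters' processing notes. Versions are not given in the sources used here. The deposited lists hold a score, an enrichment (ratio, fold), −log10 p, −log10 q and the summit position of each peak.

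The 7 genes and the gene lists were chosen with earlier results of these data known. Estimated counts were rounded and each RNA table was fitted on its own with edgeR 4.0.16 in R 4.3.3 (filterByExpr, TMM, quasi-likelihood test, Benjamini-Hochberg over all genes tested, threshold 0.05). The script was tested on simulated data. The mESC libraries held 26860527 to 33755064 counts and the embryo pools 24950199 to 32479590. Precision depends on both the spread between libraries and the number of counts of a gene. Rows with no symbol (69 in the mESC table, at most 0.0163% of counts) were left out. Intervals of 95% use the normal quantile of the standard error. Named were all 7 genes, the tested gene with the largest absolute change in each group of the list, and the 3 genes most like Dot1l. Ratios of paralogs used exact permutation tests over libraries. Peaks were joined to GRCm38.p6 gene positions with Python 3.11.15, with an overlap of at least 1 base. Motifs were searched on both strands of RefSeq windows. Counting without known strand settings leaves reads of overlapping genes uncertain. Alternatives were DESeq2 1.42.0, upper-quartile scaling, other filters, a replicate block, leaving out each library, stricter peaks and other overlaps.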

Additional observations from a re-analysis of the deposited data

How the results depend on the processing

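In mESCs, 70 of 77 alternative values of the 7 genes kept their direction and side of the threshold, 6 lost the call (all Mllt6) and 1 turned sign (Mllt1, 0.0068 with upper-quartile scaling). In embryos 66 of 70 kept both and 4 turned sign: Mllt3 without DMSO replicate 1 (-0.20) and without SGC0946 replicate 1 (-0.24), and Mllt6 without DMSO replicate 2 (0.035) and without SGC0946 replicate 2 (0.093). Leaving out each library gave -0.24 to 0.23 for Mllt3, -0.22 to 0.093 for Mllt6, 0.065 to 0.60 for Mllt1 and -0.32 to -0.023 for Aff1. Differences in log2 ratio ranged from -0.69 to 0.019 for Mllt3 over Mllt1, 0.19 to 0.59 for Aff4 over Aff1 and -0.30 to -0.044 for Mllt10 over Mllt6. The number of genes called in embryos, 0 in the edgeR test, was 126 with DESeq2, 111 with no filter, 23 with at least 10 counts in every library and 4 to 365 without single libraries (365 without SGC0946 replicate 2); of the partner list it was 1 with DESeq2 and 0 to 2 without single libraries. A replicate block gave 171 genes in embryos, and left 5 of the 7 genes called in mESCs, with Mllt6 lost (edgeR adjusted p = 0.0504). The deviations of samples with the same number correlated at 0.0048 and -0.027 in mESCs and 0.052 in embryos, so the numbers were not taken as pairs. A −log10 q of at least 5 lowered the median covered share of the 7 genes from 35.6 to 25.2% for H3K79me2. It left 0 genes with H3K79me3 in both lists, as did counting within 2 kb of the outermost annotated gene start. That count leaves out inner starts. The most enriched H3K79me3 peaks of Mllt10 began 1.007 kb (WT replicate 1) and 1.125 kb (WT replicate 2) past its inner start. Single H3K79me3 lists gave 2 to 5 genes, and a median covered share of 0 to 0.482% against 0.401%. The cause was not tested for any of these. The spread between embryo pools and unknown ChIP depth limit what can be seen.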
